A study of Mus musculus with 18 samples.

Results

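The CC chemokines are small secreted proteins with a pair of adjacent cysteines that draw leukocytes through G protein-coupled receptors. The transcripts of 10 of them, Ccl2, Ccl3, Ccl4, Ccl5, Ccl6, Ccl7, Ccl8, Ccl9, Ccl12 and Ccl22, were followed in macrophages and taken by gene symbol from the 24485 genes of the files. Ccl2, Ccl7, Ccl12 and Ccl8 are monocyte chemoattractants, of which Ccl2, Ccl7 and Ccl12 are ligands of Ccr2. Ccl3, Ccl4 and Ccl5 attract monocytes, T cells and NK cells. Ccl9 and Ccl6 are rodent chemokines that act through Ccr1, and Ccl22 is a ligand of Ccr4 that attracts helper and regulatory T cells. Macrophages release large amounts of many of these proteins when lipopolysaccharide (LPS), a component of the bacterial outer membrane, engages Toll-like receptor 4, and the cytokine IL-10 is known to restrain macrophage activation.

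RNA was sequenced from bone marrow-derived macrophages (BMDMs) of 3 young adult male mice that lack IL-10 (Il10-/-, C57BL/6J background), grown for 6 days with medium conditioned by L929 cells. Cells from each mouse received 500 nM (+)-JQ1, 10 ng/mL recombinant IL-10 or no pretreatment for 12 hours, and then 50 ng/mL LPS or saline for 4 hours. (+)-JQ1 inhibits BET proteins by occupying the bromodomains that bind acetylated histones. The 6 groups of 3 libraries were unstimulated cells, JQ1, IL-10, LPS, LPS + JQ1 and LPS + IL-10. All groups shared the Il10 deletion, the labels call the cells without a pretreatment untreated, and according to the study's methods a vehicle was given before LPS.

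Library totals ran from 6781952 to 28289498 expected counts, so the floor of 3 counts lay between 0.106 and 0.442 CPM. The counts of the 10 genes were whole numbers in all 18 libraries. Il10 had 3.20 to 14.6 TPM (transcripts scaled for gene length and depth) in every library, and without wild-type cells this gene total did not check the deletion. The summed level of 8 macrophage markers was 14235 to 29328 TPM, whereas Ly6g, the defining neutrophil marker, was listed at 0 and the B cell, NK cell and mast cell lists each stayed under 1 TPM. Several lists moved with the groups. The macrophage sum was 23480 to 25198 TPM in unstimulated cells, 29165 to 29328 with JQ1 and 14235 to 15688 with LPS. Most of it was Lyz2, with means of 18407, 24665 and 10214 TPM. The single markers did not move together (DESeq2). With JQ1 alone Cd14, Lyz2 and Mertk were called higher and Csf1r, Adgre1, Itgam and Fcgr3 lower. With LPS Adgre1 and Cd14 were called higher and Csf1r and Fcgr3 lower, and no change was called in Lyz2 (log2 fold change -0.07). The 5 neutrophil markers, nearly all S100a8 and S100a9, summed to 21.1 to 74.0 TPM in unstimulated cells against 6.76 to 13.4 with JQ1, and to 32.4 to 45.9 with LPS against 10.7 to 23.9 with LPS + JQ1. Both genes were called lower with JQ1 (log2 fold changes -1.97 and -1.86 without LPS and -1.73 and -1.30 with it, DESeq2). T cell markers, mostly Cd4, went from 6.83 to 8.10 TPM in unstimulated cells to 3.06 to 3.92 with JQ1 and 2.83 to 3.84 with LPS. Cd4 was called lower with JQ1 (log2 fold change -0.90, DESeq2 adjusted p 1.99e-05) but not with LPS (-0.39, adjusted p 0.0681). Dendritic cell markers went from 0.11 to 0.77 TPM in unstimulated cells to 1.87 to 2.61 with LPS. The 4 stromal markers summed to 17.1 to 20 TPM with LPS and LPS + IL-10 and to 2.13 to 10.3 TPM elsewhere. The rise was mostly that of Pdgfrb, whose mean was 0.40 TPM in unstimulated cells and 13.3 with LPS. Dcn, with means of 0.147 and 0.427 TPM, was also called higher with LPS (log2 fold change 2.31, DESeq2 adjusted p 0.0361). No change was called in Col1a1 and Col1a2. The 2 endothelial markers, mostly Kdr, summed to 7.48 to 9.53 TPM with LPS and LPS + IL-10 and to 0.04 to 1.32 TPM elsewhere. Their part in the results was not tested. In such bulk RNA, fewer producing cells and less RNA per cell cannot be told apart.

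By the mm9 annotation, 9 of the 10 genes lay on chromosome 11 between 81849073 and 83478185, a span of 1.63 Mb. In a first cluster Ccl2 (81849073 to 81850955, plus strand) was followed after 8258 bp by Ccl7, then by Ccl11, which is no member, and then by Ccl12 (81915347 to 81916902) and Ccl8. A second cluster held Ccl5, Ccl9, Ccl6, Ccl3 (83461346 to 83462857, minus strand) and Ccl4 (83476086 to 83478185, plus strand). Ccl22 was alone among the members on chromosome 8 (97269490 to 97275599). Counts were taken over all exons of a gene, 3 in most members and 4 in Ccl9, Ccl6 and Ccl22.

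Levels are given below as normalised counts (expected counts divided by DESeq2 size factors) in mice 1, 2 and 3, and levels of different genes are compared only in TPM, which accounts for gene length. In unstimulated BMDMs the 10 transcripts summed to 492 ± 171 TPM (SD, n = 3). Ccl9 and Ccl6 made up 33.0% and 32.0% of this sum on average, Ccl3 12.2% and Ccl4 8.49%. Ccl5 had 29.7% in mouse 1, the highest share there, but 3.22% and 3.94% in mice 2 and 3, below Ccl3 and Ccl4. Ccl2, Ccl7, Ccl12, Ccl8 and Ccl22 each made up less than the share of Ccl4, and Ccl7 and Ccl12 had no more than 9 and 5 counts in any unstimulated library. Ccl5 and Ccl22 differed widely between mice. Ccl5 had 482.9, 28.8 and 43.6 normalised counts and Ccl22 had 59.4, 3.38 and 2.68. Mouse 1 was high for both genes, and its Ccl5 was also the highest in the JQ1 and IL-10 groups, with 51.0 and 180.2.

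**Figure D1:**
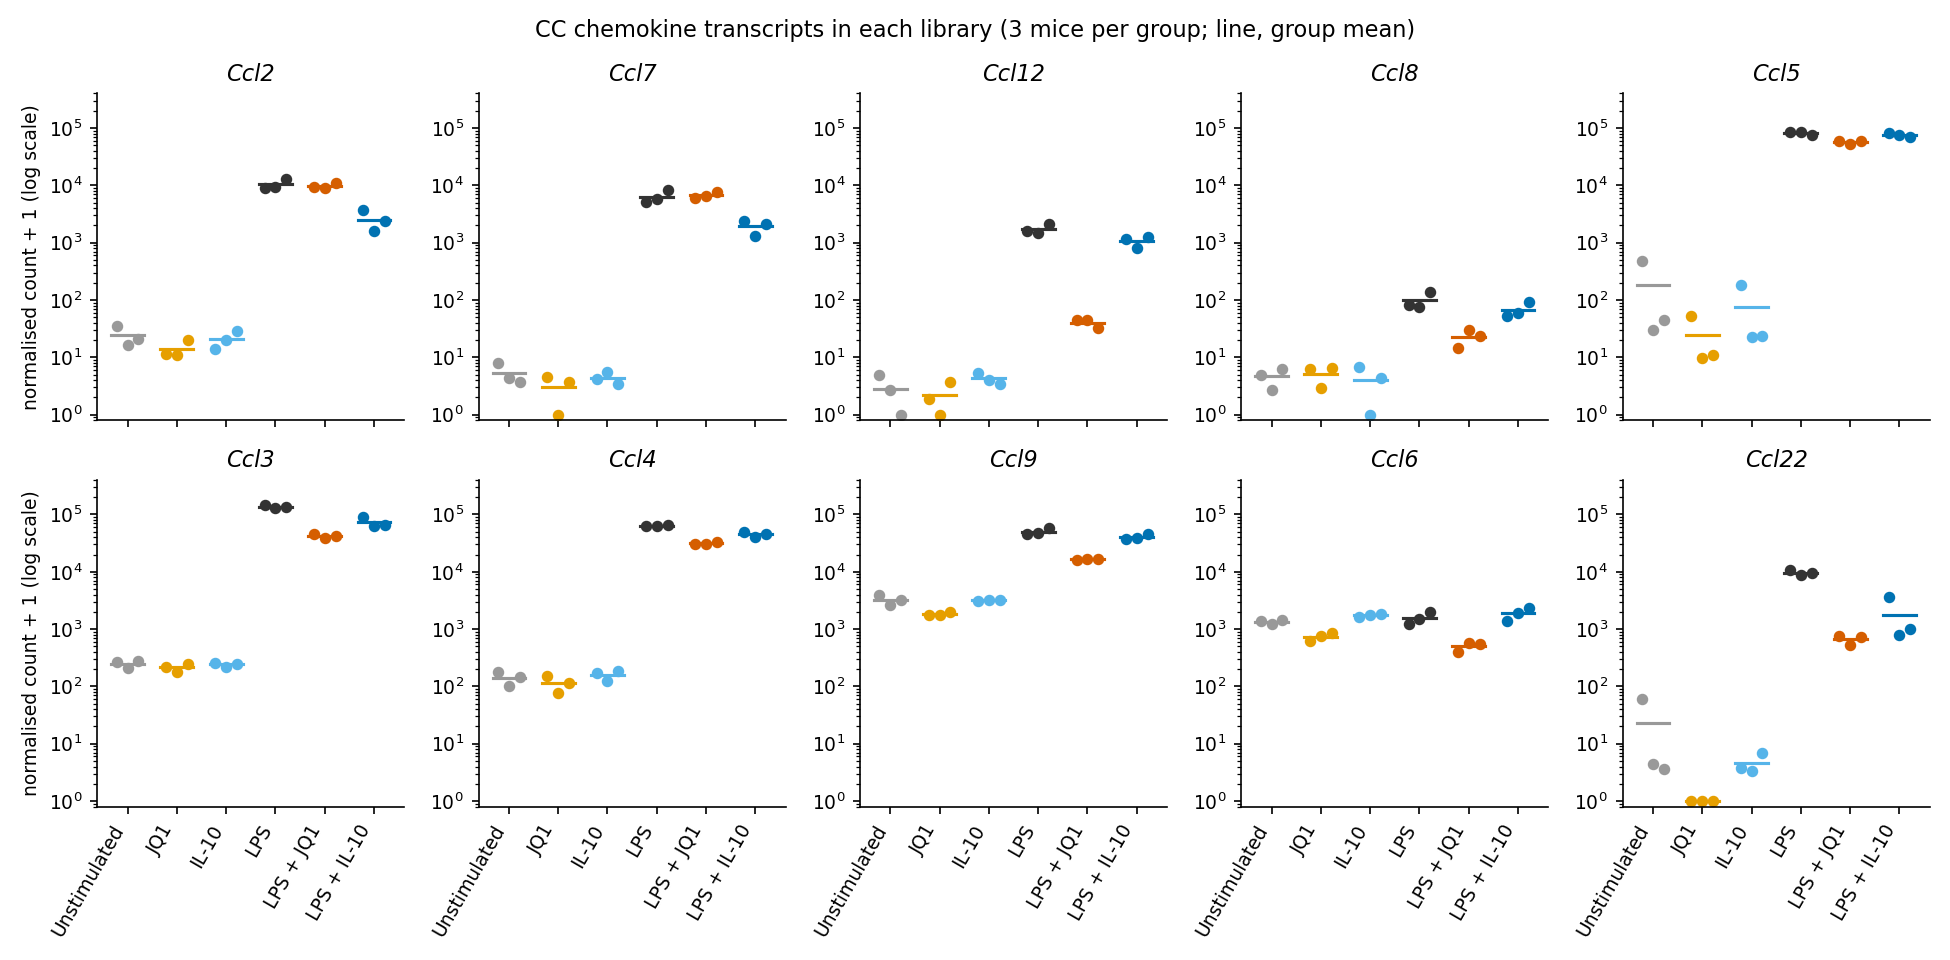
Normalised counts plus 1 of the 10 CC chemokines (log axis) in each of the 18 libraries, with points for mice and lines for the mean of 3 mice per group. LPS lifted every gene but Ccl6 far above its unstimulated level, and LPS + JQ1 left Ccl12 at 32.0 to 43.2 while Ccl2 and Ccl7 overlapped with LPS alone.

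LPS raised 8 of the 9 CC chemokines with a test, against 31.6% of all genes tested that rose, and lowered 0, against 32.9% that fell (DESeq2 Wald test, adjusted p under 0.05). Their median log2 fold change was 8.78, against -0.07 over all genes tested. The 8 rose in all 3 mice. DESeq2 gave Ccl5 no p in any comparison, because its outlier step flagged the gene, and a p returned without the unstimulated library of mouse 1.

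The monocyte chemoattractants rose from near the floor. Ccl2 went from 34.7, 15.2 and 20.1 normalised counts to 8988, 9281 and 12871 with LPS. Ccl7 went from 6.94, 3.38 and 2.68 to 5170.5, 5702 and 8174, and Ccl12 from 3.86, 1.69 and 0 to 1572, 1474 and 2111. The groups lay far apart, and with so few unstimulated counts the fold changes of Ccl7 and Ccl12 are imprecise. Their log2 fold changes were 8.75 (SE 0.370) for Ccl2, 10.48 (SE 0.430) for Ccl7 and 9.91 (SE 0.619) for Ccl12, with DESeq2 adjusted p of 2.52e-122, 1.03e-129 and 8.03e-57. Ccl8 reached only 82.0, 73.4 and 137.5 from 3.86, 1.69 and 5.36, a log2 fold change of 4.60 (SE 0.546, DESeq2 adjusted p 1.38e-16).

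Ccl3, Ccl4 and Ccl5 became the most abundant members. Ccl3 rose from 261.5, 209.7 and 274.8 normalised counts to 145542, 131688 and 134654, and Ccl4 from 175.9, 101.5 and 143.5 to 62389, 62626 and 65549. The log2 fold changes were 9.09 (SE 0.141) and 8.79 (SE 0.173), both with a DESeq2 adjusted p too small to be written other than as 0. Ccl5 reached 86232, 84012 and 75383, all above the highest unstimulated value. Its log2 fold change was 8.79 (SE 1.01), with an adjusted p of 1.68e-17 once the outlier step of DESeq2 was left out, a choice made after seeing the data. Without the unstimulated library of mouse 1 it was 11.13, and with the replicate block 9.76 (adjusted p 1.75e-38). Ccl22 rose to 10933, 8663 and 9499, a log2 fold change of 8.78 (SE 0.971, DESeq2 adjusted p 6.88e-19) that became 11.69 without the same unstimulated library.

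Ccl9 and Ccl6, with the highest mean TPM before stimulation, responded least. Ccl9 rose from 3904, 2623 and 3183 normalised counts to 45397, 48121 and 57585 (log2 fold change 3.96, SE 0.125, DESeq2 adjusted p 4.34e-220). Ccl6 had 1376, 1243 and 1414 without and 1246, 1511 and 1984 with LPS, and the groups overlapped. Its log2 fold change was 0.23 (95% interval -0.14 to 0.60, DESeq2 adjusted p 0.289), but -0.69 (adjusted p 0.000702) when libraries were scaled by their totals and -0.57 (adjusted p 0.0329) with limma on TPM, so the direction for Ccl6 depended on the scaling. Between median-of-ratios and total-count scaling the median of all genes tested moved from -0.07 to -1.02 in this comparison.

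The sum of the 10 transcripts was 53011 ± 3205 TPM (SD, n = 3) with LPS, or 1.70% ± 0.0422 of all counts, up from 0.0465% ± 0.00972. The make-up turned over with it. Ccl5 held 36.3%, Ccl3 34.6% and Ccl4 20.4% of the sum with LPS, whereas Ccl9 and Ccl6 fell to 2.70% and 0.192%. Because these are shares, a rise of one gene lowers the others.

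**Figure D2:**
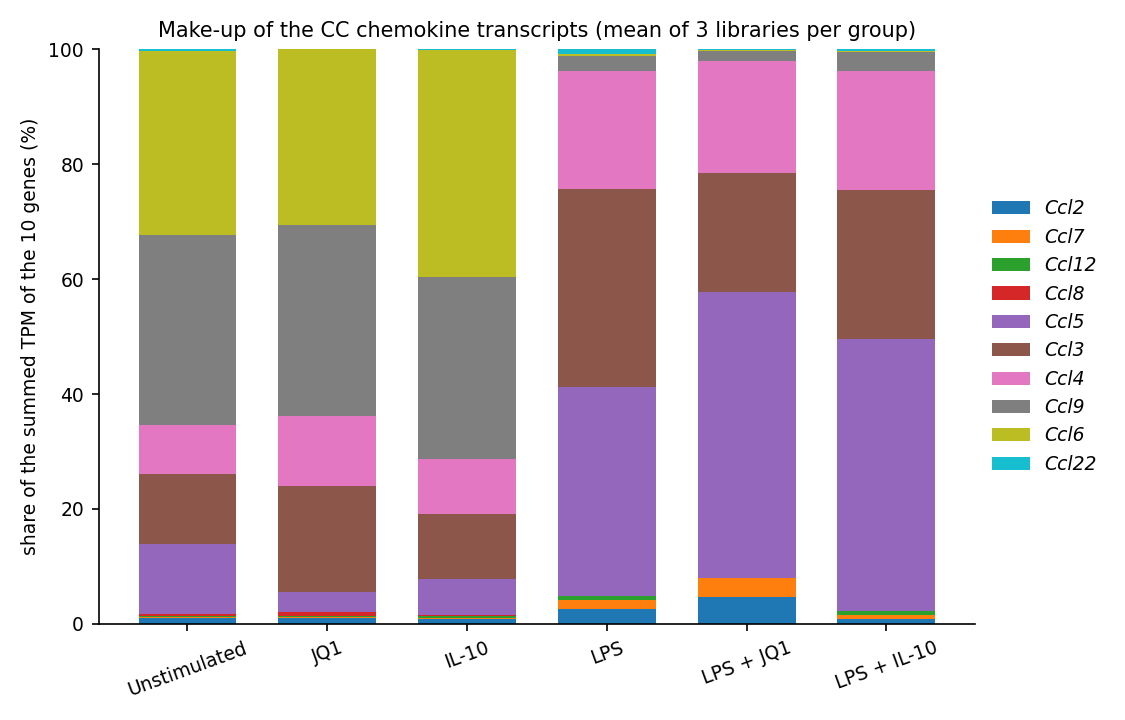
Share of each gene in the summed TPM of the 10 CC chemokines (%, mean of 3 libraries per group). Ccl9 and Ccl6 together fill most of the bar without LPS, and Ccl5, Ccl3 and Ccl4 most of it with LPS, with Ccl5 at 36.3% for LPS, 49.7% for LPS + JQ1 and 47.3% for LPS + IL-10.

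With (+)-JQ1 before LPS, 7 of the 9 tested CC chemokines were lower than with LPS alone, where 32.9% of all genes tested fell, and 0 were higher, where 24.4% of all genes rose (DESeq2). The median log2 fold change was -1.66 for the members and -0.11 over all genes tested. The 7 fell in 3 of 3 mice. Under every alternative tried 7 or 8 members passed, also under total-count scaling, where the median of all genes turned to 0.25. Ccl12 fell most and Ccl22 next, whereas no change was called in Ccl2 and Ccl7.

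The monocyte chemoattractants, encoded in the same cluster, parted. Ccl12 had 1572, 1474 and 2111 normalised counts with LPS and 43.1, 43.2 and 32.0 with LPS + JQ1. It was 43.4-fold lower (log2 fold change -5.44, SE 0.234, DESeq2 adjusted p 1.41e-117), without overlap and with a raw count of 26 to 41 in the JQ1-treated libraries. Ccl8 fell from 82.0, 73.4 and 137.5 to 13.3, 29.5 and 22.2 (log2 fold change -2.17, SE 0.418, DESeq2 adjusted p 7.12e-07). Ccl2, at the start of the cluster, had 8988, 9281 and 12871 with LPS and 9283, 8967 and 10914 with LPS + JQ1. Ccl7 had 5170.5, 5702 and 8174 with LPS and 6096, 6580 and 7695 with LPS + JQ1. Both pairs of groups overlapped. The differences were -0.09 on the log2 scale for Ccl2 (95% interval -0.74 to 0.55, DESeq2 adjusted p 0.830) and 0.10 for Ccl7 (95% interval -0.32 to 0.51, adjusted p 0.726), so changes up to those bounds were not resolved.

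The promoter windows below are those of Ccl12 and Ccl8 of the first cluster and Ccl9 and Ccl3 of the second. These genes fell with (+)-JQ1 in LPS-stimulated cells, as did Ccl6 and Ccl22, whose windows held no match to the motifs searched and are not printed. The windows are the 250 bases before the annotated start, 5' to 3' on the strand of the gene, from RefSeq on GRCm38.p6, a later build than mm9. The reference table held 6 of the 10 members (Ccl3, Ccl6, Ccl8, Ccl9, Ccl12 and Ccl22) and not Ccl2, Ccl4, Ccl5 and Ccl7. Capitals mark matches on either strand to the motifs searched. The kappaB-type motif was GGGANNTTC. The AP-1 motif was searched as the letters TGANTCA. For the ISRE-type motif they were GAAANNGAA, and the box found before many start sites was searched as TATAAA.

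Ccl12, chr11:82101595-82101844, plus strand: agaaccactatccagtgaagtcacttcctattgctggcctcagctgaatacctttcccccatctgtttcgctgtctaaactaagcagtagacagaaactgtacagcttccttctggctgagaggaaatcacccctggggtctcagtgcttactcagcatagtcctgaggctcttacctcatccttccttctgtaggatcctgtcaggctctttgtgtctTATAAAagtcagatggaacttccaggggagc

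Ccl8, chr11:82114935-82115184, plus strand: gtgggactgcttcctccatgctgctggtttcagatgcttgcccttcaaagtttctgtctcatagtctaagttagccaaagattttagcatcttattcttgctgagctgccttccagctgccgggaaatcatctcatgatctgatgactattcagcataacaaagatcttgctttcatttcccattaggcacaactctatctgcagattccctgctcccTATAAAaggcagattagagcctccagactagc

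Ccl9, chr11:83578637-83578886, minus strand: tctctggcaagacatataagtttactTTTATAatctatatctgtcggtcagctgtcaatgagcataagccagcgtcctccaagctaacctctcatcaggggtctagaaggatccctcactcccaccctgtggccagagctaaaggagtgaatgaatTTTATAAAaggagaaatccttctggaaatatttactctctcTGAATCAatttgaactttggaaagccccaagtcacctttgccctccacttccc

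Ccl3, chr11:83649379-83649628, minus strand: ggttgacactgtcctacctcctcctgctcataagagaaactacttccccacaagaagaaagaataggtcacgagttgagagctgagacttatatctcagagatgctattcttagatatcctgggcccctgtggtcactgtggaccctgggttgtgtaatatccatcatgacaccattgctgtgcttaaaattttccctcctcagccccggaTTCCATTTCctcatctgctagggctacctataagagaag

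A match to the last motif stood 31 bases before the start of Ccl12 and 32 bases before that of Ccl8, and Ccl9 held such matches farther upstream, 2 of them overlapping. Such matches occurred in 3 of the 6 member promoters and in 12.4% of 32851 promoters of the same length. The AP-1 letters were in 1 member promoter (Ccl9, 53 to 47 bases before the start) against 6.75% of all. The ISRE-type letters were in 1 (Ccl3, on the strand opposite to the gene, 39 to 31 bases before the start) against 7.13%. The kappaB-type letters were in 0 of 6 against 3.23%. Ccl6 and Ccl22 held no match in this window. Such matches describe letters only.

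Of Ccl3, Ccl4 and Ccl5, Ccl3 fell from 145542, 131688 and 134654 normalised counts with LPS to 46301.5, 38892 and 42064 with LPS + JQ1 (log2 fold change -1.69, SE 0.131, DESeq2 adjusted p 7.81e-37). Ccl4 fell from 62389, 62626 and 65549 to 30799.6, 30649 and 32504 (log2 fold change -1.02, SE 0.159, DESeq2 adjusted p 5.74e-10). In both the groups were well apart, and both kept raw counts of at least 34171 (Ccl3) and 26405 (Ccl4) a library. Ccl5 had 86232, 84012 and 75383 with LPS and 60238.5, 53426 and 60545 with LPS + JQ1. All 3 mice were lower and the groups did not overlap. Its log2 difference of -0.50 (95% interval -2.48 to 1.49) had no p in the fit over all groups, and an adjusted p of 0.708 without the outlier step. The adjusted p was 6.82e-05 when only the LPS and LPS + JQ1 libraries were fitted, and 0.000109 without mouse 1. Both fits leave out the unstimulated library of mouse 1, but Ccl5 was not called when that library alone was left out.

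Ccl9 fell from 45397, 48121 and 57585 normalised counts to 15848, 16634 and 16749.9 (log2 fold change -1.62, SE 0.124, DESeq2 adjusted p 7.97e-38). Ccl6 fell from 1246, 1511 and 1984 to 391, 568 and 542, below its unstimulated level (log2 fold change -1.66, SE 0.193, DESeq2 adjusted p 4.59e-17). Both neighbours fell, although LPS alone was found to raise Ccl9 only. Ccl22, the ligand of Ccr4, fell from 10933, 8663 and 9499 to 772, 532 and 718, or 14.4-fold (log2 fold change -3.85, SE 0.955, DESeq2 adjusted p 0.000148). The 10 transcripts summed to 33417 ± 798 TPM (SD, n = 3) with LPS + JQ1, 1.01% ± 0.0419 of counts. Within this sum Ccl5 held 49.7%, Ccl3 20.8%, Ccl4 19.6%, Ccl2 4.64% and Ccl7 3.28%.

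**Figure D3:**
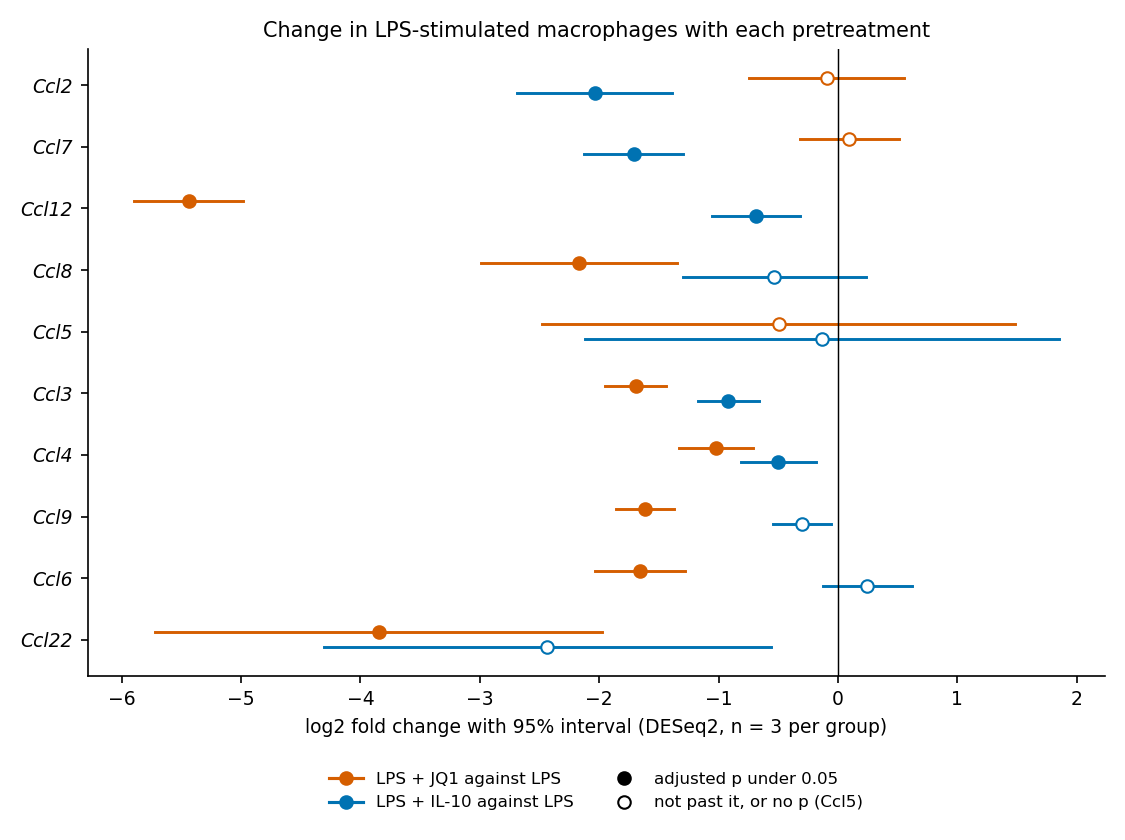
Log2 fold change (points) with 95% intervals (lines) of each CC chemokine for LPS + JQ1 and for LPS + IL-10 against LPS alone, with filled points for a DESeq2 adjusted p under 0.05. JQ1 left Ccl2 and Ccl7 near 0 and Ccl12 at -5.44, whereas IL-10 placed Ccl2 at -2.04, Ccl7 at -1.71 and Ccl12 at -0.69.

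With IL-10 before LPS, 5 of the 9 tested CC chemokines fell, where 8.81% of all genes tested fell, and 0 rose, where 8.38% of all genes rose (DESeq2 against LPS alone). The members had a median log2 fold change of -0.69, against -0.02 over all genes tested. The 5 were Ccl2, Ccl7, Ccl3, Ccl12 and Ccl4, and they fell in 3 of 3 mice.

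Ccl2 had 3657, 1573 and 2350 normalised counts with LPS + IL-10, all below the lowest LPS value of 8988. This was 4.11-fold lower (log2 fold change -2.04, SE 0.330, DESeq2 adjusted p 2.36e-08). Ccl7 had 2382, 1326 and 2112, again without overlap (log2 fold change -1.71, SE 0.211, DESeq2 adjusted p 4.08e-14). Ccl12 was lower by less, with 1142, 803 and 1251 (log2 fold change -0.69, SE 0.189, DESeq2 adjusted p 0.00274), a call that limma on TPM did not make (adjusted p 0.222). Mouse 1 was the least affected for all 3 of these genes. For Ccl8, with 51.4, 59.3 and 90.2, the groups overlapped and the log2 difference was -0.53 (95% interval -1.30 to 0.23, DESeq2 adjusted p 0.430).

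Ccl3 had 90019, 62074 and 65989.8 normalised counts with LPS + IL-10 (log2 fold change -0.92, SE 0.131, DESeq2 adjusted p 1.42e-10), and Ccl4 had 49173, 40322 and 45387 (-0.50, SE 0.159, adjusted p 0.0132). Both lay below LPS alone in all libraries. The fall of Ccl4 was not called under total-count scaling (adjusted p 0.0705), with limma (0.272) or without mouse 3 (0.531). Ccl5, with 81071, 74461.5 and 68332, overlapped with LPS alone, at a log2 difference of -0.13 (95% interval -2.12 to 1.85, no p).

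Ccl22 was split by mouse, with 3596, 783 and 1004 normalised counts against 10933, 8663 and 9499 with LPS alone. All 3 values were lower and mouse 1 lay far above the other two. The log2 fold change of -2.43 (SE 0.955) did not pass (DESeq2 adjusted p 0.0593). With the replicate block Ccl22 passed (-2.82, adjusted p 0.00520), as it did with edgeR (adjusted p 0.00120), with limma (0.00148), and without the LPS + IL-10 library of mouse 1, left out after seeing its value (-3.44, adjusted p 0.00569). Ccl9 had 37510.3, 38489 and 46368 with a log2 difference of -0.30 that did not pass (DESeq2 adjusted p 0.0720) but did with the replicate block (0.0483) and without the unstimulated library of mouse 1 (0.0225). Ccl6 had 1370, 1876 and 2378, at 0.25 (95% interval -0.12 to 0.62, DESeq2 adjusted p 0.460). The 10 transcripts summed to 39738 ± 3111 TPM (SD, n = 3), 1.21% ± 0.0930 of counts.

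In the direct contrast of the pretreatments before LPS, 8 of the 9 tested members differed. With JQ1, 2 were higher, where 23.8% of all genes tested were higher, and 6 were lower, where 31.6% were lower (DESeq2). Ccl2 and Ccl7 were higher with JQ1, by log2 fold changes of 1.94 (SE 0.330, adjusted p 1.62e-08) and 1.81 (SE 0.211, adjusted p 7.79e-17). Ccl12 of the same cluster was lower, by -4.75 (SE 0.235, DESeq2 adjusted p 2.03e-89), and so was Ccl8 (-1.64, adjusted p 0.000285). Ccl6 (-1.91), Ccl9 (-1.31), Ccl3 (-0.78) and Ccl4 (-0.52) were lower with JQ1 as well, the last with a DESeq2 adjusted p of 0.00238 that was lost under total-count scaling (0.218), with limma (0.220) and without mouse 3 (0.215). For Ccl22 the log2 difference was -1.41 (95% interval -3.29 to 0.46, DESeq2 adjusted p 0.209). It passed with edgeR (adjusted p 0.0196), without mouse 1 (-0.52, 0.00752) and without the unstimulated library of mouse 1 (-1.41, 0.0216). Ccl5, with no p in the fit over all groups, was lower with JQ1 in 3 of 3 mice, without overlap. It passed only when these groups alone were fitted (-0.28, DESeq2 adjusted p 0.0122) and without mouse 1 (-0.33, 0.0128). Within each mouse, the 8 called differences had the same sign in 3 of 3.

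Before LPS, (+)-JQ1 lowered 3 of the 9 tested members, where 23.7% of all genes tested fell, and raised 0, where 21.9% of all genes rose (DESeq2). Ccl9 and Ccl6 were among them. Ccl9 was at 1759, 1728 and 1987 normalised counts with JQ1, against 3904, 2623 and 3183 without (log2 fold change -0.83, SE 0.126, DESeq2 adjusted p 4.20e-10). Ccl6 had 624, 751 and 844 against 1376, 1243 and 1414 (-0.86, SE 0.191, DESeq2 adjusted p 2.85e-05). In both genes the groups did not overlap. Ccl22, the third, had 0 counts in all JQ1 libraries, which makes it at least 7.89-fold lower against a floor of 3 counts per library. That bound rests on mouse 1, since unstimulated mice 2 and 3 had 2 and 4 counts, and limma did not call the fall (adjusted p 0.0854).

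The other members were low without LPS. Ccl2 had 10.4, 9.86 and 19.2 normalised counts with JQ1 (log2 difference -0.87, DESeq2 adjusted p 0.0872), and Ccl3 had 219.7, 180.4 and 243.6 (-0.23, adjusted p 0.220). These and Ccl4 (-0.35, adjusted p 0.118) overlapped with unstimulated cells, and under total-count scaling all 3 passed. Ccl5 had 51.0, 8.87 and 10.1 with JQ1, lower than unstimulated in each mouse. Its log2 difference of -2.99 had no p in the fit over all groups and passed with the replicate block (-2.64, adjusted p 0.00198). It also passed without any library of mouse 1 (-2.03, DESeq2 adjusted p 1.26e-06), with edgeR (adjusted p 0.0111) and with limma (0.0376). It was -0.64 (adjusted p 0.634) when only the unstimulated library of mouse 1 was left out, which kept the JQ1 library of that mouse. Ccl7, Ccl12 and Ccl8 had at most 6 counts in any JQ1 library, and a change was not detectable at this depth.

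IL-10 alone changed 0 of the 9 tested members (DESeq2), where 1.80% of all genes tested rose and 1.01% fell. At an unadjusted p under 0.05, DESeq2 had 1 higher (Ccl6) and 1 lower (Ccl22), and edgeR and limma had 0. Ccl6 had 1595, 1762 and 1866 normalised counts, above all unstimulated values, with a log2 difference of 0.37 (DESeq2 adjusted p 0.520) that passed when only these 2 groups were fitted (0.37, adjusted p 0.000709). Ccl3 had 258.8, 220.5 and 246.7 with IL-10, and Ccl9 had 3029, 3260 and 3175. Both overlapped with unstimulated cells, with log2 differences of -0.05 (95% interval -0.34 to 0.24) and -0.04 (95% interval -0.28 to 0.21).

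Within each pretreatment LPS still induced most members. After JQ1, LPS raised 8 of 9 and lowered 1, against 27.6% and 31.0% of all genes tested (DESeq2). After IL-10 it raised 8 and lowered 0, against 33.2% and 33.8%. The member lowered after JQ1 was Ccl6 (log2 fold change -0.56, DESeq2 adjusted p 0.00712). Ccl12 rose with LPS by 5.01 (SE 0.758) on the log2 scale after JQ1 and by 8.24 (SE 0.393) after IL-10, against 9.91 without a pretreatment. Ccl2 rose by 9.53 after JQ1 and by 7.01 after IL-10, against 8.75. Ccl22, at 0 counts with JQ1, rose at least 244-fold.

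**Figure D4:**
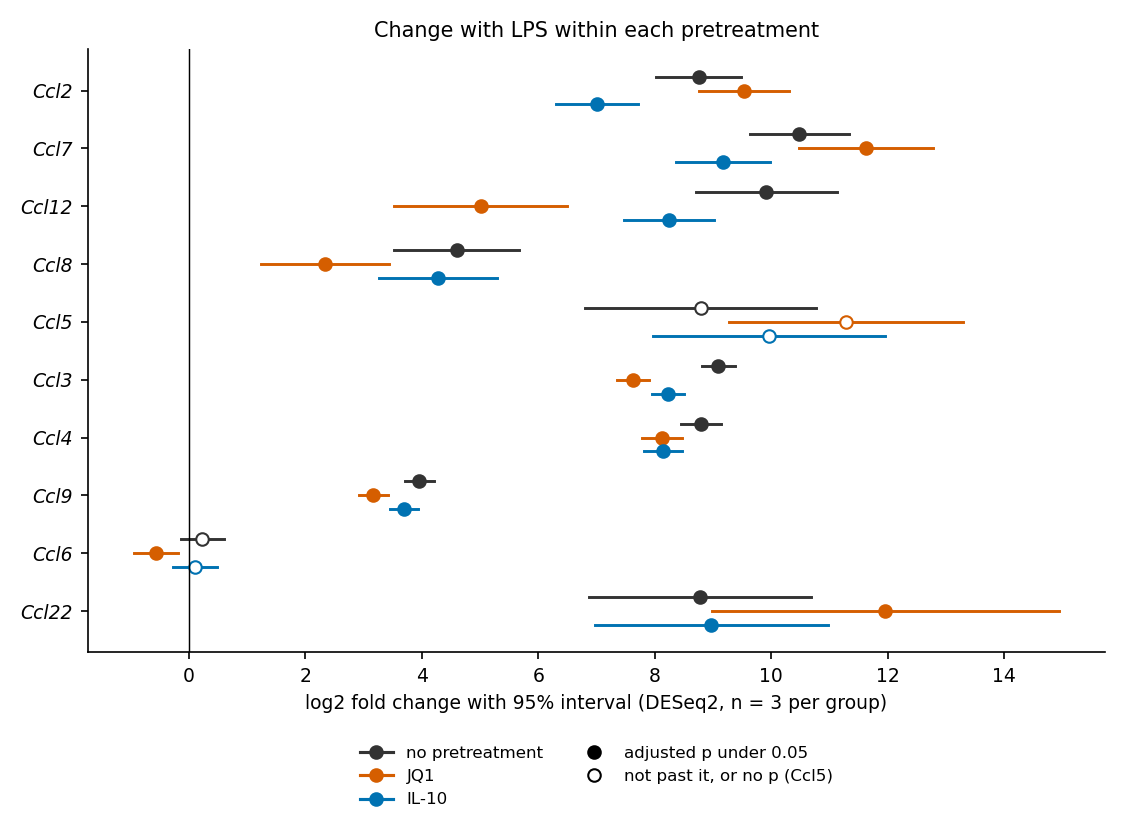
Log2 fold change with LPS (points) and 95% intervals (lines) of each CC chemokine in cells without a pretreatment, with JQ1 and with IL-10, with filled points for a DESeq2 adjusted p under 0.05. Ccl12 rose by 5.01 after JQ1 and 9.91 without it, and the point of Ccl22 after JQ1 is a fitted value against libraries at 0 and not a bound.

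The interaction term tested whether the effect of a pretreatment differed with and without LPS. For JQ1, 6 of the 9 tested members had a more negative effect with LPS, where 23.8% of all genes tested did, and 0 a more positive one, where 17.7% did (DESeq2). They were Ccl12 (-4.90, SE 0.979, adjusted p 3.63e-06), Ccl8 (-2.26), Ccl3 (-1.47, SE 0.201, adjusted p 4.12e-12), Ccl6 (-0.80), Ccl9 (-0.79) and Ccl4 (-0.67), and of these Ccl3 passed under each alternative. Without mouse 3, Ccl12 (-2.36, adjusted p 0.258), Ccl4, Ccl6 and Ccl8 did not pass. Ccl4 was also lost with TMM (adjusted p 0.0685), edgeR (0.0902), limma (0.608), only the groups compared (0.114) and without mouse 1 (0.0732). Ccl8 was lost with edgeR (0.0677) and without mouse 1 (0.144), Ccl6 without mouse 2 (0.0607) and with limma (0.502), and Ccl9 with limma (0.267). Ccl12 had 0 to 5 counts in unstimulated libraries. Under total-count scaling Ccl4, Ccl6, Ccl8 and Ccl9 did not pass, and Ccl2 (1.32) and Ccl7 (1.70) passed with a more positive effect. With limma Ccl7 passed so as well (0.91, adjusted p 0.0418), beside 4 members with a more negative effect. Without mouse 1 Ccl5 did (1.54, DESeq2 adjusted p 0.000752), again beside 4 with a more negative one. For IL-10, 2 members had a more negative effect with LPS, where 3.44% of all genes tested did, and 0 a more positive one, where 4.00% did. They were Ccl3 (-0.86, SE 0.198, DESeq2 adjusted p 0.000444) and Ccl2 (-1.75, SE 0.518, adjusted p 0.0139), and Ccl2 was lost without mouse 2 (0.460) or mouse 3 (0.536) and with edgeR (0.105). Ccl4 passed under other settings, among them the replicate block (-0.67, adjusted p 0.0223, against 0.0801).

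Ratios of members within a library do not depend on the scaling between libraries. They were chosen after the levels were seen and are given without a test, because 3 against 3 libraries cannot pass an exact one. For every 100 counts of Ccl2, Ccl12 had 16.6 ± 0.820 (SD, n = 3) after LPS, 0.413 ± 0.104 after LPS + JQ1 and 45.2 ± 12.1 after LPS + IL-10. This ratio moved in opposite directions under the pretreatments, whereas Ccl7 for every 100 counts of Ccl2 was higher with both, at 60.8 ± 3.04, 69.8 ± 3.90 and 79.8 ± 12.98. For every 100 counts of Ccl3, Ccl2 had 7.59 ± 1.76 after LPS, 23.0 ± 2.95 after LPS + JQ1 and 3.39 ± 0.779 after LPS + IL-10, and the 3 groups did not overlap. For every 100 counts of Ccl5, Ccl22 had 11.9 ± 1.35, 1.15 ± 0.146 and 2.32 ± 1.84. The ratio of Ccl3 to Ccl4, neighbouring genes on opposite strands, was 216 ± 14.9, 136 ± 12.9 and 161 ± 19.7 per 100. Ccl6 had 3.11 ± 0.352, 3.04 ± 0.502 and 4.55 ± 0.789 for every 100 counts of Ccl9.

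**Figure D5:**
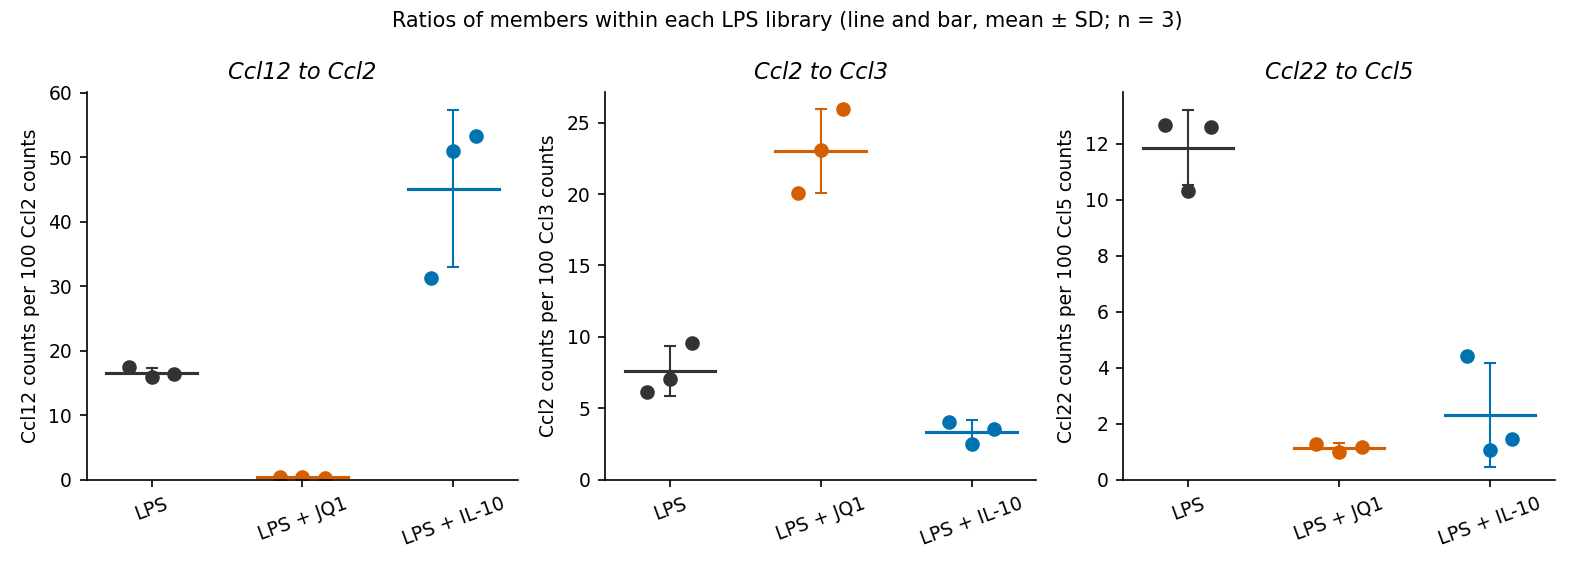
Counts of Ccl12 per 100 of Ccl2, Ccl2 per 100 of Ccl3 and Ccl22 per 100 of Ccl5 in each LPS-stimulated library (points), with the mean and SD of 3 libraries (line and bar). Ccl12 per 100 Ccl2 is 0.293 to 0.482 with LPS + JQ1 and 31.2 to 53.2 with LPS + IL-10.

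The genes most like each member over the 18 libraries were sought among 8378 genes with a mean of at least 100 normalised counts, by Pearson's r of log2(normalised count + 1). As all 18 libraries share the LPS contrast, r is mostly a measure of induction and is a description only, as is r over the 9 LPS-stimulated libraries. Ccl8 was too low to enter. Ccl2 and Ccl7 shared Katna1 among their closest genes (r 0.993 and 0.995, and 0.924 and 0.949 with LPS), beside Mab21l3 for Ccl2 (0.995) and Rel for Ccl7 (0.993). Ccl12 was most like Synj1 and Ikzf1 (both 0.991), and over the LPS-stimulated libraries r was 0.977 and 0.997. Ccl3 was most like Cflar and Stx11, and Ccl4 most like Sept11 and Cd40 (all 0.998). Ccl9 had Bcl2a1a (0.998) and Nod1 (0.997), and Ccl22 had Il1a (0.986) and Cxcl3 (0.985). Ccl5 had Tlr2 (0.994) and Mx1 (0.993), and for Tlr2 r was 0.382 with LPS. Ccl6 was close to Frmd4b (0.956, and 0.962 with LPS), the lowest r over the 18 libraries among these pairs.

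Of the 14 other CC ligands in the files, 5 had an adjusted p for LPS, of which 2 rose and 1 fell, near the 31.6% and 32.9% of all genes tested. LPS + JQ1 lowered 1 of 5 against LPS alone, where 32.9% of all genes fell, and LPS + IL-10 lowered 2 of 4, where 8.81% fell, and 0 were raised by either. Ccl24, an eosinophil attractant, had 191, 202 and 274 normalised counts in LPS libraries, 6.63, 6.32 and 4.92 in LPS + JQ1 libraries and 66.3, 74.5 and 103 in LPS + IL-10 libraries. Its log2 fold changes were -5.21 (SE 0.434, DESeq2 adjusted p 4.15e-32) and -1.44 (SE 0.262, adjusted p 1.01e-06). Like Ccl12, Ccl24 fell with JQ1 to a few percent of its LPS level. Without LPS, each pretreatment alone changed 0 of these ligands (DESeq2, and 0 at an unadjusted p under 0.05).

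Of the 15 receptors, 11 had an adjusted p for LPS, and 5 rose and 2 fell, against 31.6% and 32.9% of all genes tested. Ccrl2, an atypical receptor that binds chemerin, rose from 105, 115 and 117 normalised counts to 7768, 8093 and 8414 (log2 fold change 6.17, SE 0.112), and Ccr2 fell (-1.61, SE 0.226, DESeq2 adjusted p 3.52e-12). JQ1 lowered 7 of 11 receptors with LPS, against 32.9% of all genes tested, and 7 of 10 without LPS, against 23.7%, and raised 0, against 24.4% and 21.9%. Ccr2, the receptor of Ccl2, Ccl7 and Ccl12, had 79.2, 76.5 and 136 after LPS and 0 in all 3 LPS + JQ1 libraries, at least 28.7-fold lower against a floor of 3 counts per library. Ccr3 fell with JQ1 alone (-6.17, SE 0.706, DESeq2 adjusted p 4.25e-17).

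IL-10 raised 2 of 8 receptors and lowered 0 in the absence of LPS, against 1.80% and 1.01% of all genes tested. With LPS it raised 2 and lowered 1 of 7, against 8.38% and 8.81%. Ccr1, the receptor of Ccl9 and Ccl6, rose by 0.89 with IL-10 alone (log2 scale, SE 0.228, DESeq2 adjusted p 0.00673) and by 0.65 with LPS (SE 0.228, adjusted p 0.0278). Set against LPS + IL-10, LPS + JQ1 was lower in 7 of 11 receptors and higher in 0, against 31.6% and 23.8% of all genes tested. Ccr2 averaged 94.4 normalised counts in the LPS + IL-10 libraries and was at 0 with LPS + JQ1.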

How the data were processed

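The authors extracted paired reads from stranded, ribosomal RNA-depleted libraries with TagDust, used STAR for alignment to mm9 and RSEM 1.2.31 at default settings, which ignore strand, for gene totals. The deposited expected counts are RSEM's estimated reads per gene (5.40% to 6.63% of genes per library not whole), and TPM, as deposited by the authors, scales them for gene length and depth. Groups and replicate numbers came from the titles, and lanes from the labels (mouse 1 on lane 7, mouse 3 on lane 8, mouse 2 on lane 7 without LPS and lane 8 with it). The titles name no animal, and the replicate numbers were taken as mice 1, 2 and 3. Replicates of a group differed beyond sampling noise (chi-square per degree of freedom 4.14 to 30.5), so each of the 18 libraries was counted once.

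Expected counts of all 24485 genes were rounded and fitted with DESeq2 1.42.0 in R 4.3.3. The fit had group as the only term, all libraries together and median-of-ratios size factors. Calls were made at a Benjamini-Hochberg adjusted p under 0.05, adjusted over the genes tested within each of 10 comparisons. Alternatives were edgeR 4.0.16, limma 3.58.1 on log2(TPM + 1) with a mean TPM of at least 1, TMM and total-count scaling, a filter of 10 counts in 3 libraries, lane, mouse as a block, only the groups compared and libraries left out. Scripts were tested on simulated data. Same-numbered libraries were taken to come from the same animal. Their deviations from group means correlated at 0.25 to 0.581 for LPS + IL-10 against LPS, 0.119 to 0.322 for IL-10 alone, 0.121 to 0.182 for LPS against unstimulated, -0.171 to 0.118 for LPS + JQ1 against LPS and -0.174 to 0.187 in the others. Floors cover counting error only, as reads carry no molecular identifiers, whereas the 95% intervals come from DESeq2's SE and include the spread between libraries. Named genes were all members, per list and comparison the 2 largest called changes among genes averaging 50 normalised counts or more, and the 2 genes most like each member. The members, lists and motifs were chosen with earlier results of these data known. 1 gene that the rule for named genes selects is not reported here. The authors' FPKM values were not used.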

Additional observations from a re-analysis of the deposited data

Results flagged for a closer look

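In 8 cases the test of the interaction found that the effect of a pretreatment on a CC chemokine differed with and without LPS (DESeq2 adjusted p under 0.05). For JQ1 the log2 interaction was -4.90 for Ccl12, -2.26 for Ccl8, -1.47 for Ccl3, -0.80 for Ccl6, -0.79 for Ccl9 and -0.67 for Ccl4. For IL-10 it was -1.75 for Ccl2 and -0.86 for Ccl3. In each case the effect was more negative with LPS. Of the JQ1 cases, Ccl3 alone passed under each alternative tried. Ccl12 and Ccl8 were at or near the floor of 3 counts without LPS, where a fall was not detectable at this depth.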

How the results depend on the processing

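Of 1440 alternative values of single members, 1335 kept their side of the threshold and, where called, their direction. A change of sign between values without a call was not counted. A call was gained in 70, most of them of Ccl5, which had no p in the main fit. A call was lost in 29, and 6 turned with a call in the main or the alternative fit. JQ1 alone changed 3 members, but 6 under total-count scaling and 5 with limma. IL-10 alone changed 0, but 1 when only the groups compared were fitted. The IL-10 interaction called 2 members, but 1 with edgeR, 3 with limma, 3 with only the groups compared and 3 without the unstimulated library of mouse 1. The JQ1 interaction called 6, but 4 with edgeR and 4 under total-count scaling. Leaving out each mouse in turn gave 9 to 10 members for LPS, 4 to 4 for JQ1, 0 to 0 for IL-10, 7 to 8 for LPS + JQ1 against LPS, 4 to 6 for LPS + IL-10 against LPS, 7 to 10 for the direct contrast, 10 to 10 for LPS after JQ1, 9 to 9 after IL-10, 2 to 5 for the JQ1 and 1 to 4 for the IL-10 interaction. Ccl6 turned with LPS to -0.69 under total-count scaling and -0.57 with limma, and with LPS after IL-10 to -0.71 and -0.65. Ccl22 turned in the JQ1 interaction with limma (-2.44) and in the IL-10 interaction without mouse 1 (range over mice left out, -3.81 to 1.49). The summed members rose 107.7-fold with LPS in TPM and 36.6-fold as a share of counts, 67.9-fold and 21.7-fold with LPS + JQ1, and 80.7-fold and 26.1-fold with LPS + IL-10.

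Scaling also moved the share of higher genes among all genes called. From median-of-ratios to total-count scaling it went from 49.0% to 20.1% for LPS, 48.0% to 26.8% for JQ1, 42.5% to 64.9% for LPS + JQ1 against LPS, 48.7% to 71.1% for LPS + IL-10 against LPS, 42.9% to 61.2% for LPS + JQ1 against LPS + IL-10, 47.1% to 25.6% for LPS after JQ1, 49.6% to 21.0% after IL-10, 53.7% to 73.6% for the IL-10 and 42.6% to 85.4% for the JQ1 interaction (54.7% with TMM, 54.5% with edgeR). For IL-10 alone it went from 64.0% to 87.0% with limma, which elsewhere moved the shares as total-count scaling did except for the IL-10 interaction. The replicate block changed 7 of 100 calls, those of Ccl5 for LPS (9.76), JQ1 (-2.64), LPS after JQ1 (11.92) and LPS after IL-10 (10.75), Ccl9 and Ccl22 for LPS + IL-10 against LPS, and Ccl4 for the IL-10 interaction. It changed no other call. Depth limits Ccl7, Ccl8 and Ccl12 without LPS.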
